A study of Mus musculus with 6 samples.

Results

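Genes of plasma glycoprotein sialylation, fucosylation and clearance were followed in primary mouse hepatocytes that were left untreated or exposed to IL-1β. The 10 genes were St6gal1, St3gal1, St3gal4, B4galt1, Fut8, Mgat1, Mgat2, Mgat4b, Asgr1 and Asgr2. They were taken by symbol from a table of 23282 genes, and all 10 were found and passed the filter on low counts. The hepatocytes came from C57BL6/N mouse livers digested with collagenase, and the labels give no altered allele or transgene. After plating, 3 cultures received no treatment (control) and 3 received recombinant IL-1β protein, an inflammatory cytokine that macrophages such as Kupffer cells release, for 24 h. The cells were filtered and washed, and no step that removes other liver cells is described. The dose for the sequenced cultures and the number of mice behind them are not given in the sources used here, so p-values measure the spread between these samples, which may be technical. RNA was sequenced by QuantSeq, a method that reads the 3′ end of each mRNA, so that counts do not scale with gene length. Values are CPM, counts scaled to a common library size by TMM normalization, which assumes that most genes do not differ between libraries. The comparison asked which enzymes and receptors of this pathway responded to IL-1β.

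Most proteins that the liver secretes into plasma carry N-glycans. In the Golgi, MGAT1 and MGAT2 start the antennae of these sugar trees and MGAT4B adds a further branch. B4GALT1 then adds galactose, and a sialic acid caps the chain, in α2,6-linkage by ST6GAL1 or in α2,3-linkage by ST3GAL enzymes. FUT8 attaches fucose to the core. ASGR1 and ASGR2 form the asialoglycoprotein receptor of hepatocytes, which binds glycoproteins whose galactose has lost its sialic acid cap and takes them up from plasma for degradation.

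Libraries held 9538741 to 11105408 counts, with 11.7% to 14.2% on the ribosomal RNA precursor Rn45s. At these depths 3 counts correspond to 0.27 to 0.315 CPM, a limit that covers counting error only. Replicates of a group differed by more than sampling noise, so no library was counted as a duplicate. Of 6 hepatocyte markers, Alb, Apoa1, Ttr and Serpina1b were abundant in all 6 libraries, whereas Cps1 was at 1.79 to 3.22 CPM and Tat at 0.535 to 4.04 CPM. Summed over 8 macrophage markers, the level was 202 to 234 CPM in control and 206 to 231 CPM in IL-1β-treated cultures, of which Cd68 alone gave 172 to 204 CPM. The Kupffer cell markers Clec4f, Vsig4 and Timd4 were at most 2.42 CPM. Cd5l was at means of 19.9 and 17.2 CPM and Marco at 3.99 and 6.33 CPM. Of 5 macrophage markers tested, 0 were called by edgeR, DESeq2, the exact test of edgeR or limma. The share called by edgeR over all genes tested was 13.4%, and 1 of the 5 markers had an unadjusted p below 0.05. Summed over 6 endothelial markers the level was 44.2 to 49.4 CPM and 44.3 to 47.1 CPM, and over 6 stellate markers 18.1 to 21.3 CPM and 19.9 to 26.1 CPM. The 5 cholangiocyte markers summed to 316 to 329 CPM in controls and 236 to 240 CPM after IL-1β, nearly all of it Sox9 and Spp1. Of these, Spp1 was lower, at means of 190 and 82.7 CPM, while Sox9 was at 134 and 155 CPM without passing the test (edgeR, adjusted p = 0.0519), and Epcam, Krt19 and Krt7 were at most 0.564 CPM. Of 4 neutrophil markers listed, 3 were in the table, where S100a8 had 0 counts in controls and 19 to 51 after IL-1β and S100a9 had 0 counts in all libraries. Of 5 T and NK cell markers, Cd3e, Cd3g and Cd8a had 0 counts throughout, and Cd4 and Nkg7 had at most 2 counts in any library.

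After IL-1β, the galactosyltransferase B4galt1 and the α2,6-sialyltransferase St6gal1 rose, and both receptor subunits Asgr1 and Asgr2 fell. The other 6 genes did not pass the test. The call was an adjusted p below 0.05 in the quasi-likelihood test of edgeR with Benjamini-Hochberg adjustment over the 11657 genes tested. Thus 4 of 10 genes were called, where 13.4% of all genes tested were called, and 2 were higher and 2 lower, against 6.97% and 6.44% of all genes. The control and IL-1β samples did not overlap in 5 of the 10 genes, against 28.2% of all genes. The median log2 fold change of the 10 was -0.100, against -0.002 for all genes tested. When libraries were scaled by total counts alone, higher genes made up 39.6% of all calls and not 52%, and 2 of the 10 genes were still called higher while 3 were called lower.

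**Figure D1:**
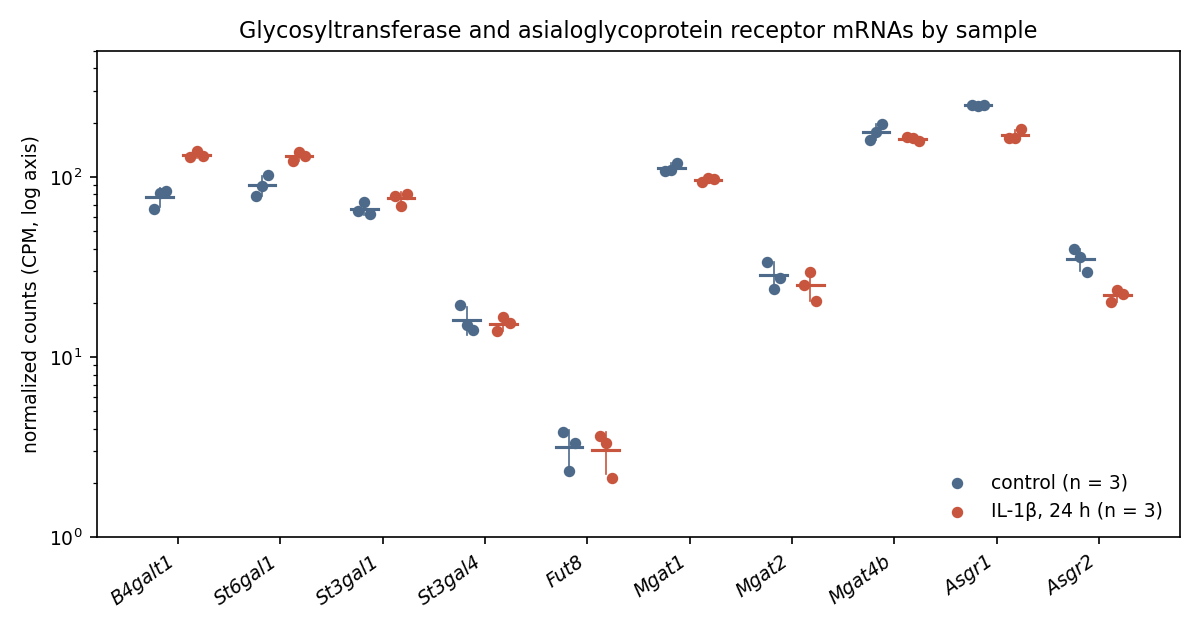
Normalized counts (CPM, log axis) of the 10 genes in each of 3 control and 3 IL-1β-treated samples. Points are samples, horizontal lines are means and vertical lines are 1 SD; B4galt1 and St6gal1 lie higher after IL-1β in all 3 samples, Asgr1 and Asgr2 lower.

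B4galt1 encodes β-1,4-galactosyltransferase 1, which adds the galactose that later receives sialic acid. The gene lies on the minus strand of chromosome 4 of GRCm38, from 40804582 to 40854537. Its level was 66.7, 81.2 and 83.6 CPM in the control samples and 129, 139 and 130 CPM in the IL-1β samples. Every IL-1β sample was above every control. B4galt1 rose, with means of 77.2 ± 9.15 and 133 ± 5.41 CPM (control first, SD over 3 samples each). On the log2 scale this was 0.78 with a standard error of 0.0859 (edgeR, adjusted p = 1.8e-07), or a 1.72-fold increase with a 95% interval of 1.52- to 1.95-fold.

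St6gal1 encodes the sialyltransferase that places α2,6-linked sialic acid on galactose, and hepatocytes also release the enzyme into plasma. It lies on the plus strand of chromosome 16, from 23224740 to 23360350. The control samples held 78.5, 88.6 and 102 CPM, and the IL-1β samples held 122, 137 and 130 CPM. The groups did not overlap, although the controls spread more widely than the IL-1β samples. The means were 89.7 ± 11.7 and 130 ± 7.32 CPM (control first, SD over 3 samples each). St6gal1 thus rose by 0.53 on the log2 scale, with a standard error of 0.0876 (edgeR, adjusted p = 7.6e-05), a 1.45-fold increase with a 95% interval of 1.28- to 1.64-fold. B cells also express St6gal1, and their markers Cd79a and Ms4a1 had 0 counts in all 6 libraries while Cd79b reached at most 0.101 CPM. The part of other cell types, such as the endothelial cells whose markers were present, in the level of St6gal1 was not tested.

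The promoter windows of both genes are shown here because these were the members that rose. RefSeq windows on GRCm38.p6, of 250 bases before to 50 bases after a start site, were found for 8 of the 10 genes, not for St3gal1 and Mgat4b. Each was searched on both strands for CAAAGTC (HNF4-type), GTTAATNAT (HNF1-type), TTNNGCAA (C/EBP-type), GGNNNTTCC (κB-type) and TGANTCA (AP-1-type). Over all 32851 windows, 4.44%, 0.801%, 10.8%, 18.5% and 7.81% held these letters, in that order. Capitals mark the matches, which did not overlap each other, and the lines run 5′ to 3′ on the strand of the gene. Which start site the cells used was not measured, since QuantSeq reads the other end of the mRNA. The B4galt1 window, chr4:40853935-40854234 on the minus strand, held 1 match, CAAAGTC, beginning 3 bases before the start site. This window lies inside the gene span given above, so its start site is not the 5′ end of that span. St6gal1 has 3 windows. Window 1, whose start site is the gene start given above, held no match, and window 2 held 1 C/EBP-type match. Window 3, chr16:23290220-23290519 on the plus strand, is printed because it held 4 matches, of the C/EBP, κB and AP-1 types. It lies inside the gene span given above, after the start sites of windows 1 and 2. Of the members not called, Mgat1 held 3 κB-type matches in its window 3 and 1 C/EBP-type match in its window 1. The windows of St3gal4, Fut8 and Mgat2 held no match.
B4galt1: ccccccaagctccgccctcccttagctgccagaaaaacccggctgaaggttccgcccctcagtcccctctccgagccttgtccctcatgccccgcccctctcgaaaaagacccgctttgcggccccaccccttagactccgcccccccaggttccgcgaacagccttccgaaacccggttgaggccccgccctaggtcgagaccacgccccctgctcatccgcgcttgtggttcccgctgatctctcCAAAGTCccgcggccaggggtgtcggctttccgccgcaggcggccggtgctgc
St6gal1, window 3: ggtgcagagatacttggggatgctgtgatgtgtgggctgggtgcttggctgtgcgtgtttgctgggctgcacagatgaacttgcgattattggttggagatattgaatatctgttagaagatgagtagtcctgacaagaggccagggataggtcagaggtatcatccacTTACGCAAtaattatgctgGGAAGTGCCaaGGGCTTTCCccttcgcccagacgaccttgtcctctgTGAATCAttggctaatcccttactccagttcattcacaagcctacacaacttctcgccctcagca

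The members of α2,3-linkage, St3gal1 and St3gal4, did not pass the test. St3gal2, an α2,3-sialyltransferase outside the members, rose by 0.50 on the log2 scale, as given below. St3gal1, which acts mainly on O-glycans, lies on chromosome 15 from 67102875 to 67176882. It was at 64.7, 72.6 and 62.3 CPM in controls and 78.4, 68.8 and 80.2 CPM after IL-1β, so the groups overlapped. Its 1.14-fold difference had a 95% interval of 0.999- to 1.3-fold (adjusted p = 0.217 from edgeR). St3gal4, which acts on N-glycans, lies on chromosome 9 from 35046579 to 35116810. It ranged from 14.1 to 19.4 CPM in controls and from 13.9 to 16.7 CPM after IL-1β. Its log2 fold change was -0.08 (standard error 0.161, adjusted p = 0.843 from edgeR), with a 95% interval of 0.754- to 1.19-fold.

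The balance of St6gal1 and St3gal4 was compared within each sample. The log2 ratio of their counts was 2.01, 2.56 and 2.85 in the control samples and 3.14, 3.03 and 3.08 in the IL-1β samples. The ratios did not overlap, and the 3 IL-1β samples lay closer together than the controls. The mean ratio was 2.48 ± 0.43 in control and 3.08 ± 0.05 in treated samples (SD, n = 3 per group), a difference of 0.61 on the log2 scale. An exact permutation test gave a two-sided p of 0.1, the smallest that 3 against 3 samples allow. Without control replicate 1 the difference was 0.377.

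**Figure D2:**
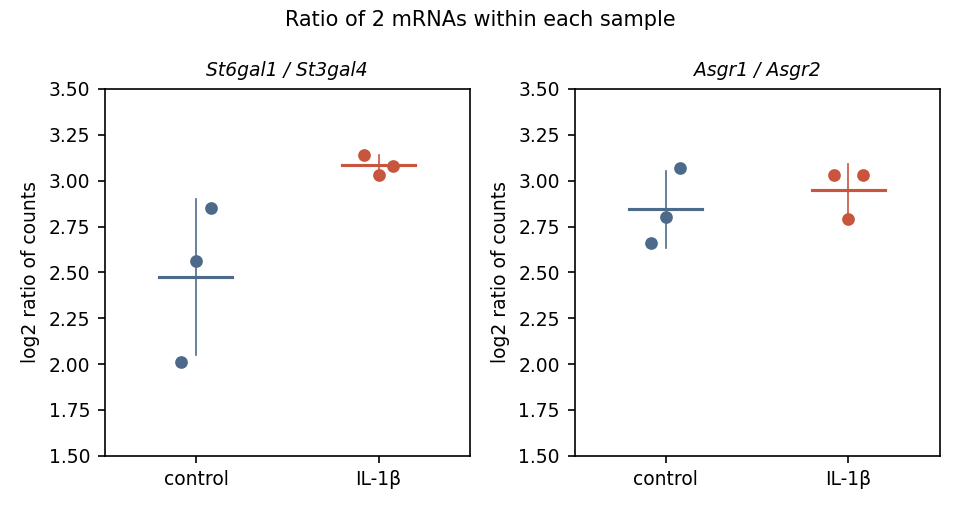
Log2 ratio of the counts of St6gal1 to St3gal4 (left) and of Asgr1 to Asgr2 (right) within each of 3 control and 3 IL-1β-treated samples. Points are samples, horizontal lines are means and vertical lines are 1 SD; the groups do not overlap on the left (means 2.48 and 3.08) and overlap on the right (means 2.84 and 2.95).

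None of the 3 branching enzymes passed the test. Mgat1 encodes N-acetylglucosaminyltransferase I, which opens the path from high-mannose to complex N-glycans, and lies on chromosome 11 from 49244191 to 49263024. Its samples held 108, 109 and 120 CPM in control and 93.4, 98 and 97.1 CPM after IL-1β. The highest IL-1β sample was lower than the lowest control. The log2 fold change was -0.22 (standard error 0.0769, adjusted p = 0.0591 from edgeR), a 0.858-fold level with a 95% interval of 0.768- to 0.958-fold. With upper-quartile scaling the adjusted p was 0.0287, with total-count scaling 0.0189 and without control replicate 1 0.036, so the call for Mgat1 depended on these choices.

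Mgat2, whose product adds the second antenna, lies on chromosome 12 from 69184158 to 69186773. It ranged from 23.8 to 33.9 CPM in control and from 20.5 to 29.7 CPM after IL-1β. Its adjusted p was 0.513, with a 95% interval of 0.717- to 1.08-fold. Mgat4b, on chromosome 11 from 50225335 to 50235103, ranged from 160 to 196 CPM and from 157 to 167 CPM. Its adjusted p was 0.358, with an interval of 0.823- to 1.02-fold. Both genes overlapped between the groups. Opposite-strand gene models of GENCODE overlap the whole of Mgat2 and the 5′ ends of St6gal1, St3gal4 and Fut8. The strand setting of the counting is not given in the sources used here, so reads of both strands cannot be told apart there. The annotated 3′ ends of these opposite-strand models, the ends that QuantSeq reads, lie outside these members.

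Fut8 encodes the α1,6-fucosyltransferase of core fucose and lies on chromosome 12 from 77238104 to 77475996. It was the least covered of the 10 genes, with 41, 26 and 33 counts in control and 34, 35 and 23 counts after IL-1β. The groups overlapped at 2.33 to 3.85 CPM and 2.14 to 3.63 CPM. The 95% interval of its change ran from 0.576- to 1.6-fold (adjusted p = 0.953 from edgeR), so changes within these bounds were not excluded by these samples.

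Both subunits of the asialoglycoprotein receptor were lower after IL-1β. Asgr1 encodes the major subunit and lies on the plus strand of chromosome 11, from 70054124 to 70057895. Asgr2 encodes the minor subunit and starts 34749 bases after the end of Asgr1 on the same strand, spanning 70092644 to 70106186. Asgr1 was at 250, 248 and 249 CPM in the control samples and at 165, 164 and 183 CPM in the IL-1β samples. The controls were nearly equal, and every IL-1β sample was below them. The means were 249 ± 0.806 and 171 ± 10.5 CPM (control first, SD over 3 samples each). Asgr1 fell by 0.55 on the log2 scale, with a standard error of 0.0684 (edgeR, adjusted p = 1.7e-06), to a 0.685-fold level with a 95% interval of 0.621- to 0.756-fold.

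Asgr2 was at 39.6, 35.7 and 29.6 CPM in control and at 20.2, 23.7 and 22.3 CPM after IL-1β. The groups did not overlap. The means were 35 ± 5.05 and 22.1 ± 1.77 CPM (control first, SD over 3 samples each). Asgr2 fell by 0.66 on the log2 scale, with a standard error of 0.127 (edgeR, adjusted p = 5.1e-04), to a 0.631-fold level with a 95% interval of 0.526- to 0.757-fold. The log2 ratio of Asgr1 to Asgr2 was 2.66, 2.80 and 3.07 in control and 3.03, 2.79 and 3.03 after IL-1β, so the ratios overlapped. Their difference was 0.11 (exact permutation test, two-sided p = 0.7), with SDs of 0.21 and 0.14 for 3 samples each. With 3 against 3 samples this test cannot give a p below 0.1, so a shift in the subunit ratio was not excluded.

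Hepatocyte markers moved in the same direction as the receptor. Of 6 listed, 5 were lower and 0 higher after IL-1β in edgeR, against 6.44% and 6.97% of all genes tested, while DESeq2 called 4 and limma 3. Their median log2 fold change was -0.355. Their summed level was 21044 to 21258 CPM in control and 17372 to 18311 CPM after IL-1β. Alb fell by 0.20, Apoa1 by 0.33, Ttr by 0.35, Serpina1b by 0.45 and the sparsely counted Tat by 1.71 on the log2 scale, whereas Cps1 had -0.36 (adjusted p = 0.652). None of the 6 had 0 counts in all libraries. Their part in the lower level of Asgr1 and Asgr2 was not tested. Hepatocyte mRNAs can respond to IL-1β themselves, as the paper reports for Serpina1c-e in primary hepatocytes. In these bulk samples, fewer hepatocytes and less of these mRNAs per hepatocyte cannot be told apart.

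The promoter windows of both receptor genes are shown because they were the members that fell. The second of the 2 Asgr1 windows, chr11:70054105-70054404 on the plus strand, and the Asgr2 window, chr11:70092394-70092693 on the plus strand, each held CAAAGTC once, 30 and 51 bases before the start site. The same letters stood in the B4galt1 window above, whose gene rose, and in 4.44% of all windows. The first Asgr1 window, whose start site is the gene start given above, overlaps the second. It held 1 C/EBP-type and 1 AP-1-type match and no CAAAGTC, and is not printed. For Asgr1 the printed window thus held fewer matches, whereas for St6gal1 the window with the most was printed. The choice followed no common rule, so the printed windows do not compare genes that rose with genes that fell. The start site of the second window lies further inside the gene, so its CAAAGTC lies after the first start site. The printed windows of the receptor genes held no match of the other 4 types, unlike the first Asgr1 window.
Asgr1, window 2: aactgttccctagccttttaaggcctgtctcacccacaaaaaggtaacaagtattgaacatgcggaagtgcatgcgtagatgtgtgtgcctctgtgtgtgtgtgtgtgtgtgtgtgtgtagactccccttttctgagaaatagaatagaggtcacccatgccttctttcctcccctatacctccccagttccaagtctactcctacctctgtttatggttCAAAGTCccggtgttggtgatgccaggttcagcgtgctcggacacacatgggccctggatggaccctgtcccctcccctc
Asgr2: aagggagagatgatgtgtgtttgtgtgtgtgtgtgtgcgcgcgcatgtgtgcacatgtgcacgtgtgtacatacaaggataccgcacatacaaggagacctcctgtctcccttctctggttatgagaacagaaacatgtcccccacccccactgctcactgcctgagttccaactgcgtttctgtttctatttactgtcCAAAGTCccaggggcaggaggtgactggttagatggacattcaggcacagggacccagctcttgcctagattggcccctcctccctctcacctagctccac

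**Figure D3:**
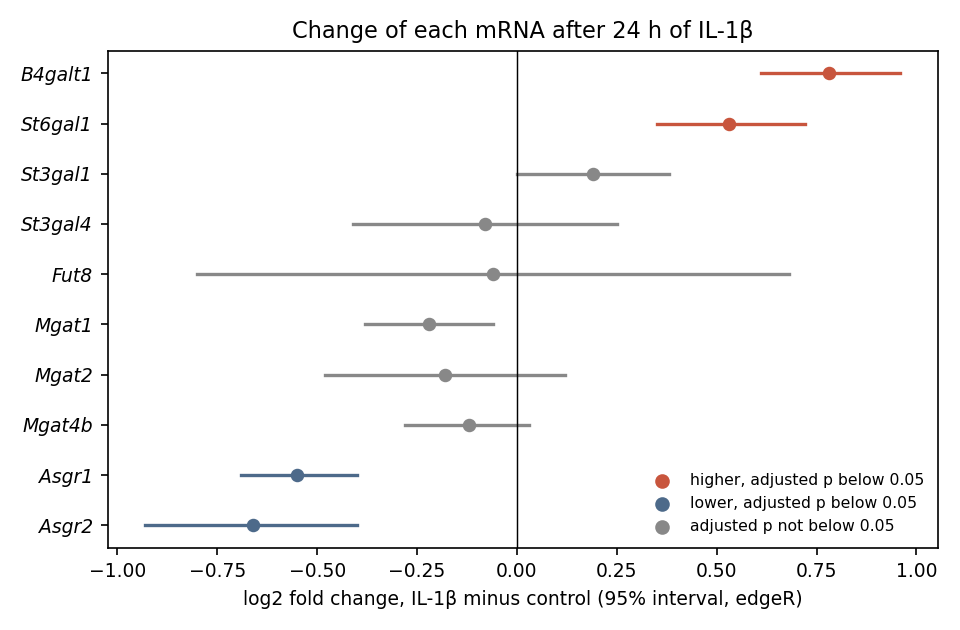
Log2 fold change (IL-1β minus control, 3 samples each) of the 10 genes with its 95% interval from edgeR, coloured by whether the adjusted p was below 0.05. B4galt1 (0.78) and St6gal1 (0.53) lie above 0, Asgr1 (-0.55) and Asgr2 (-0.66) below 0, and the interval of Fut8 is the widest.

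The wider pathway was read from a list of 96 further genes, grouped by role, of which 66 were tested. At an adjusted p below 0.05, 8 were higher and 4 lower, or 18.2%, against 13.4% of all genes tested. In the lists below with 1 gene called the share was 11.1% to 16.7%, near that of all genes. The trimming, O-GalNAc and receptor lists had 33.3%, 22.2% and 42.9%, of 9, 9 and 7 genes tested. The median log2 fold change of the 66 was -0.046. The 30 genes with too few counts reached at most 2.42 CPM in any library. The number called was 7 when control replicate 2 was left out, 7 when IL-1β replicate 1 was, and 5 when IL-1β replicate 2 was.

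Among 17 other sialyltransferases, 6 were tested, and St3gal2, an α2,3-sialyltransferase of O-glycans and gangliosides, was the one that rose. It went from 28.6 ± 6.34 to 40.4 ± 1.93 CPM (SD, n = 3 per group), a log2 fold change of 0.50 (adjusted p = 0.0101 from edgeR). Of 7 tested genes for the supply of CMP-sialic acid, the donor of these enzymes, and its removal, Cmas was lower and none higher. Cmas, which makes CMP-sialic acid, was at 96.9 ± 1.9 CPM in control and 80.9 ± 5.85 CPM in treated samples (SD, n = 3 per group), a log2 difference of -0.26 (edgeR, adjusted p = 0.0335).

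Of 10 tested genes of fucosylation, GDP-fucose supply and fucosidases, 0 were called by edgeR, DESeq2, the exact test of edgeR or limma, and 0 had an unadjusted p below 0.05. Over all 11657 genes tested, edgeR called 13.4%, and 2745 had an unadjusted p below 0.05. The Golgi GDP-fucose transporter Slc35c1 was at 49.4 ± 5.73 CPM and 47.9 ± 4.31 CPM, and the lysosomal fucosidase Fuca1 at 45.9 ± 1.87 CPM and 47.4 ± 8.8 CPM (SD, n = 3 per group, control first).

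Of 9 tested genes of galactose addition and supply, B4galt5, a galactosyltransferase that mainly makes lactosylceramide, rose by 0.53 on the log2 scale (edgeR, adjusted p = 0.0113), its means being 14.9 ± 1.25 CPM untreated and 21.5 ± 1.66 CPM treated (SD over 3 samples each). In that list 4 genes had an unadjusted p below 0.05 in edgeR. Of 6 tested genes of branching and UDP-GlcNAc supply, Gnpnat1, an enzyme of UDP-GlcNAc synthesis, rose by 0.34 on the log2 scale (edgeR, adjusted p = 0.0141).

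Of 9 N-glycan trimming genes, 2 rose and 1 fell. The Golgi mannosidases Man1a2 and Man2a2 had log2 fold changes of 0.25 and 0.45 (adjusted p = 0.0225 and 0.0208 from edgeR). Man2a1, the closest relative of Man2a2 and an enzyme of the same trimming step after MGAT1, had -0.26 (adjusted p = 0.0367). The levels were 21.2 ± 3.18 and 28.9 ± 0.985 CPM for Man2a2 and 103 ± 5.34 and 86.1 ± 8.11 CPM for Man2a1 (SD, n = 3 per group, control first). The fold changes of these paralogs had opposite signs.

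Of 9 tested genes that start or extend O-GalNAc glycans, 1 rose and 1 fell. Galnt2 and Galnt10, which both attach the first GalNAc, had log2 fold changes of 0.31 (adjusted p = 0.0432 from edgeR) and -0.62 (adjusted p = 0.0135). Of the proteases that release glycosyltransferases from the Golgi, 3 were tested and 0 were called by edgeR, DESeq2, the exact test of edgeR or limma, with 0 at an unadjusted p below 0.05. At the 13.4% called over all genes tested, so short a list would hold few calls or none. Sppl3 was at 42.9 ± 2.13 and 43.5 ± 2.78 CPM, and Bace1, which cleaves ST6GAL1 in hepatocytes, at 18.3 ± 1.33 and 16.3 ± 0.386 CPM (SD, n = 3 per group, control first).

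Among 7 other glycan-binding and cargo receptors tested, 2 rose and 1 fell. M6pr, a mannose 6-phosphate receptor that sorts lysosomal enzymes, rose by 0.34 on the log2 scale (edgeR, adjusted p = 0.0045), and Mcfd2, a partner of the cargo receptor LMAN1, had 0.30 (adjusted p = 0.0264). Clec4g, a lectin of liver sinusoidal endothelium, had 72, 48 and 63 counts in control and 3, 7 and 14 counts in treated samples, which is -2.87 on the log2 scale (edgeR, adjusted p = 1.9e-05). Of 6 endothelial markers, which include Clec4g, 2 were lower and 1 higher, against 6.44% and 6.97% of all genes tested. Kdr was lower, with a log2 fold change of -1.49, and Lyve1 was higher, with 0.45. The part of the endothelial cells in this result was not tested.

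**Figure D4:**
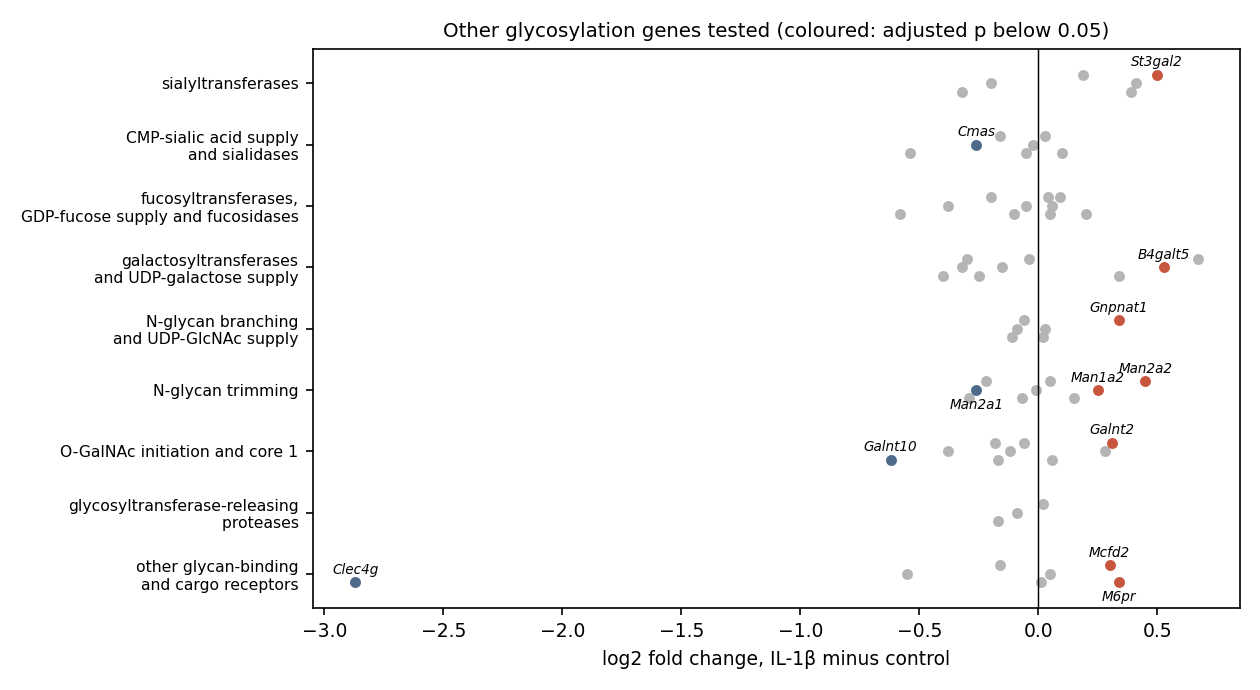
Log2 fold change (IL-1β minus control, 3 samples each) of the 66 further glycosylation genes tested, by role. Each point is a gene, and colour and name mark the 12 with an adjusted p below 0.05 in edgeR; Clec4g, at -2.87, lies farthest from 0.

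Of these 12 genes, M6pr passed under all 15 alternatives to the test, scaling, filter and samples, and Clec4g under the 14 in which it was tested. Galnt2 passed under 7 of 15, and the other 9 under 10 to 14. The 4 called members passed under all 15 alternatives. Over these, the log2 fold change ran from 0.69 to 0.84 for B4galt1, from 0.45 to 0.63 for St6gal1, from -0.60 to -0.51 for Asgr1 and from -0.77 to -0.57 for Asgr2. The highest adjusted p of the 4 was 0.00848, for Asgr2 without IL-1β replicate 1.

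**Figure D5:**
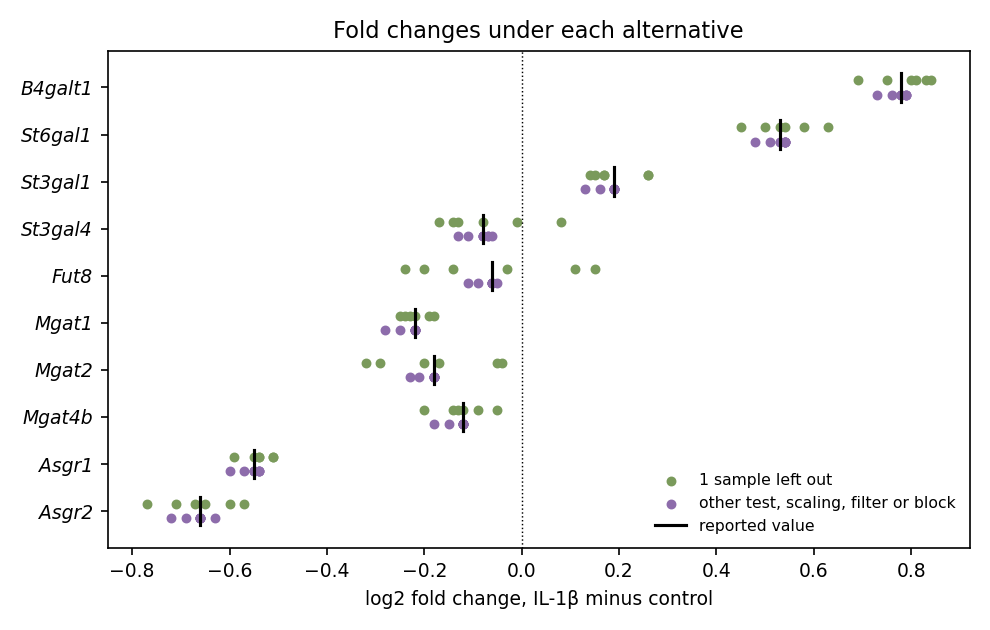
Log2 fold change (IL-1β minus control) of the 10 genes as reported (black line), with 1 sample left out in turn (upper points) and under another test, scaling, filter or replicate block (lower points). B4galt1, St6gal1, Asgr1 and Asgr2 stay on 1 side of 0, while St3gal4 and Fut8 cross it.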

How the data were processed

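RNA of 3 control and 3 IL-1β-treated hepatocyte cultures was sequenced by QuantSeq 3′ mRNA-Seq as single-end reads of 75 nt. The submitters' processing notes name Bowtie2, edgeR and the mouse build mm10 (GRCm38). Versions, the counting tool and the treatment of reads matching several genes are not given in the sources used here. The authors deposited raw counts per gene, which were the only values analysed. They also deposited log2 normalized values with group averages, a fold change ratio and an unadjusted p-value, which were not used.

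Groups came from the sample titles. All 3 samples of a group were used, although the design text counts 2. The main test was that of edgeR 4.0.16 under R 4.3.3 (filterByExpr, TMM, quasi-likelihood test, Benjamini-Hochberg adjustment over 11657 genes). The standard error is the log2 fold change divided by the square root of F. Exact permutation tests used scipy 1.17.1. Alternatives were DESeq2 1.42.0, the exact test of edgeR, limma 3.58.1 on log2(CPM + 1), upper-quartile and total-count scaling, scaling without Rn45s, no filter, a minimum of 10 counts per library, the replicate number as a block, and each sample left out. The members, gene lists, motifs and tests were chosen with earlier results of these data known, and the windows printed were chosen after their matches were seen. All members are named, and in each further list up to 3 called genes with the smallest adjusted p, or up to 2 of the most abundant where none was called. Marker genes were named for context, and 1 of those listed is not reported here.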

Additional observations from a re-analysis of the deposited data

How the results depend on the processing

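The calls of B4galt1, St6gal1, Asgr1 and Asgr2 held under all 15 alternatives. The number of the 10 members called was 4 or 5, the fifth being Mgat1, at an adjusted p of 0.0287 with upper-quartile scaling, 0.0189 with total-count scaling and 0.036 without control replicate 1. Deviations from the group means of samples sharing a replicate number had correlations of 0.14, 0.07 and -0.04. Between samples of unlike number they ran from -0.22 to 0.19. Whether an equal number means a shared mouse or preparation is not stated, and these few values cannot decide it. With that number as a block, 1671 genes and 5 members were called, Mgat1 at an adjusted p of 0.0466, while 12 other pathway genes were called, as many as without it. The number of all genes called ran from 1131 to 1596 with each sample left out and from 1488 to 1728 under the others. The 12 other pathway genes called became 5 to 10 with each sample left out, where fewer samples entered the test. With each sample left out, St3gal4 ranged from -0.17 to 0.08 on the log2 scale, above 0 without control replicate 1, and Fut8 from -0.24 to 0.15, at 0.11 without control replicate 1 and 0.15 without IL-1β replicate 3. None of these passed the threshold. With each sample left out, the difference in the log2 ratio of St6gal1 to St3gal4 was 0.377 to 0.796 and that of Asgr1 to Asgr2 0.017 to 0.224, where 2 against 3 samples cannot give a two-sided exact permutation p below 0.2. Fut8 had the fewest counts of the members, 23 to 41 per library.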
